A study of Homo sapiens with 24 samples.

Results

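Heat shock proteins and chaperonins are the proteins that help other proteins fold, and their transcripts were followed here in D425 cells, a long-used line grown from a human medulloblastoma, a tumour of the cerebellum. The members are all probe sets that list 1 gene symbol and whose symbol is that of an HSP90, HSP70, HSP110, HSP60, HSP10, small heat shock protein, DNAJ or CCT gene. HSPG2, HSPBAP1 and HSPBP1, which share a name stem only, were dropped. The rule found 185 of the 41097 probe sets with 1 symbol on the array, and these read 81 genes, of which 5 are non-coding neighbours that carry a member's name. HSPA8, HSPA1A, HSPA1B and TCP1 lie only on probe sets that list several symbols and are not analysed here.

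HSP70 proteins bind exposed stretches of unfolded proteins in a cycle of ATP binding and hydrolysis, J-domain proteins (the DNAJ genes) bring them their clients and start the hydrolysis, and exchange factors, HSP110 among them, reset the cycle. HSP90 acts later, on kinases, hormone receptors and other near-folded clients. Chaperonins are closed chambers: HSP60 with its lid HSP10 works in the mitochondrial matrix, and the TRiC ring built from the CCT subunits folds actin and tubulin in the cytosol. Parallel sets serve the endoplasmic reticulum, where HSPA5 (BiP) and HSP90B1 (GRP94) are the main ones.

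There were 24 Affymetrix U133 Plus 2.0 arrays, 18 of them from cells labelled as carrying a doxycycline-inducible hairpin against OTX2, a homeobox gene active in fore- and hindbrain development, and 6 from cells labelled control. The hairpin arm has 3 courses that the labels call independent and the control has 1 course, each with an array at 0, 8, 16, 24, 48 and 96 h. Per the labels' protocols all cells grew in MEM with fetal calf serum and both arms were induced with doxycycline. What the control cells carry, and whether either line is a clone or a pool, is stated nowhere in the labels. The 3 arrays of a time point give the spread, and the single control arrays are assumed to vary like them.

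Signals are MAS5 intensities on a linear scale. A gene was tested where a probe set exceeded its array's median signal, which lay between 16.3 and 20.6, on at least 3 arrays, and the probe set with the highest mean stood for the gene. Changes are differences of log2(signal + 16), which understate the changes of dim genes, and called means an adjusted p under 0.05 from limma over all 13903 genes tested. Of the 81 members 67 were tested, and 54 of these were above the median on all 24 arrays. The other 14 did not exceed 20.9 on any array on their brightest probe set. They include the small heat shock protein HSPB1 (1.40 to 17.2), the stress-induced HSPA6 (1.30 to 20.9), the testis-enriched HSPA2 and HSPA1L, and HSPB2, HSPB3, HSPB7 and HSPB9.

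The 1 probe set used for OTX2 read 4659 ± 217 (SD, n = 3) at 0 h and 4188 ± 302 at 96 h, a log2 change of -0.15 (limma adjusted p = 0.172), and 4964 and 5357 in the control. The positions of hairpin and probe set along OTX2 are unknown here, so this value does not check the labels and the arrays are called by their labels. The actin 3'/5' signal ratio, which grows as RNA is degraded or copied short, averaged 1.42 in course 1 and 1.40 in the control but 2.07 and 1.91 in courses 2 and 3. All 12 genes of a proliferation list fell at 96 h, with a median log2 change of -2.16. Their median difference between the arms at 96 h was -1.18, and in the control all 12 were lower in late than in early arrays (median -0.51, none called by limma). The summed signal of 6 fibroblast markers went from between 72.0 and 102.9 at 0 h to between 560 and 1127 at 96 h against 190 and 184 in the control, and that of 7 neural markers from between 2483 and 3960 to between 4634 and 5147 against 3379.9 and 2396. Of 4 immune and 5 endothelial markers with a probe set 1 each passed the filter, CD3E and PECAM1, and neither was called at 96 h. Those not passing were PTPRC, CD14, LYZ, CDH5, VWF, KDR and CLDN5. The part of these shifts in the results below was not tested.

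At 96 h members were called in both directions. The lower ones were HSP90AB1, HSP90B1, HSPD1, HSPE1, 6 TRiC subunits, the HSP70 relatives HSPA4, HSPA4L, HSPA9 and HSPA14, 7 J-domain genes (DNAJA3, DNAJB11, DNAJC2, DNAJC8, DNAJC9, DNAJC10 and DNAJC21) and HSPB8. The members that were higher were 12 DNAJB and DNAJC genes, HSPA12A and the non-coding DNAJC3-DT. In all 14 members were called higher and 22 lower, 36 of 67, against 43.6% of all genes tested (21.1% higher and 22.5% lower). The share of members called higher was near that of all genes, and the share called lower was above it. Whether these shares differ was not tested. The median log2 change of the tested members was -0.02, beside 0.00 over all genes, and 11 called members changed at least 2-fold. The shOTX2 arrays at 96 h lay wholly above those at 0 h in 16 members and wholly below in 24, and overlapped them in 27. For this count and the 2-fold count no share over all genes is given, so neither is set against a background. Of the 36 called members 35 had the same sign in all 3 courses, HSPB8 being the exception. The calls rest on the same 3 courses, so this count is no separate support. No share over all called genes is given for it. Fewer cells of a type and less RNA per cell cannot be told apart in these bulk samples.

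**Figure D1:**
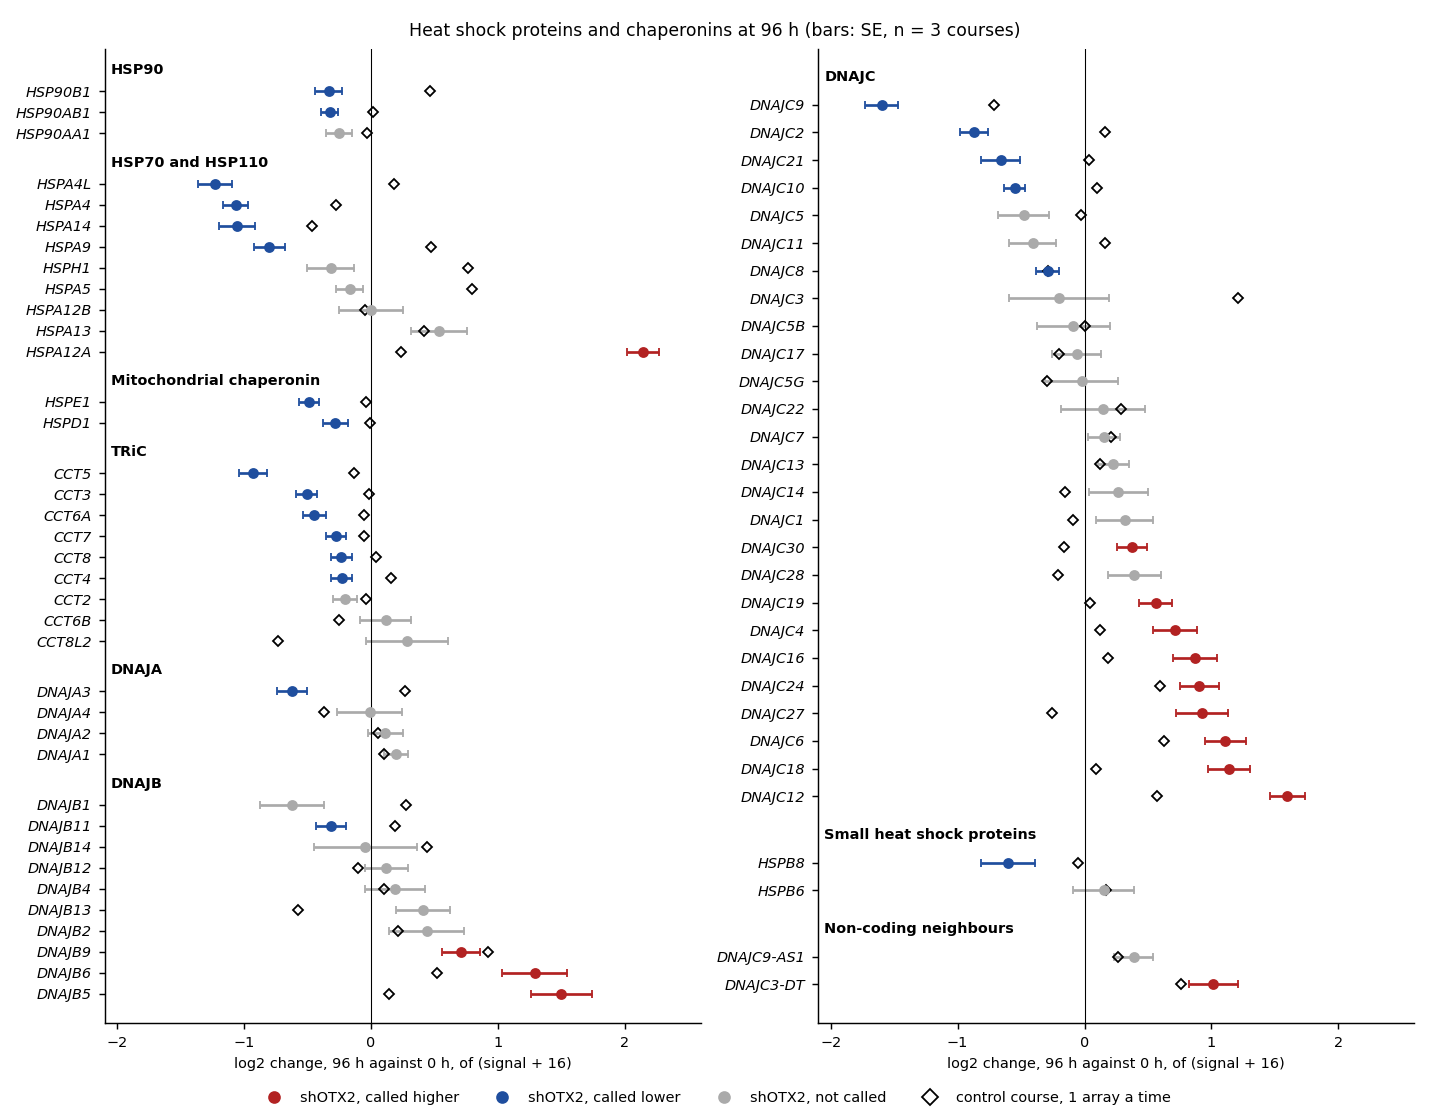
Log2 change of signal + 16 at 96 h against 0 h for the 67 tested members, grouped by family; circles are the means of the 3 shOTX2 courses with their standard errors, coloured where called, and open diamonds are the control course, with 1 array a time. The HSP90, mitochondrial chaperonin and most HSP70 circles lie left of 0, as do 7 of the 9 TRiC circles. CCT6B and CCT8L2 lie right of 0. DNAJB and DNAJC circles lie on both sides, and HSPA12A is the farthest right at 2.14.

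The HSP90 genes encode the cytosolic pair HSP90AA1 (the stress-inducible form) and HSP90AB1 (the constitutive form) and HSP90B1 of the endoplasmic reticulum. HSP90AB1 read 5619, 5570.1 and 5290 in courses 1, 2 and 3 at 0 h and 4186, 4309 and 4645 at 96 h, with 5938 and 6009 in the control. It fell by 0.33 ± 0.07 (SE; limma adjusted p = 0.00049), and the 2 groups did not overlap. HSP90AA1 read 6585, 7959.9 and 6365 at 0 h and 5624, 5865 and 5988 at 96 h, also without overlap, but its change of -0.25 was not called (limma adjusted p = 0.0607). With the course as a replicate block the adjusted p of HSP90AA1 from limma was 0.0122. The probe set used had the smallest change of 4, and with their mean HSP90AA1 was called lower (-0.45, limma adjusted p = 0.000284), as it was after median centring (-0.37) and quantile normalization (-0.15). TRAP1, the mitochondrial HSP90, lies outside the naming rule and fell by 0.70 (limma adjusted p = 9.77e-06).

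Most HSP70 and HSP110 genes with a call were lower. HSPA4 encodes an HSP110, an exchange factor for HSP70, and read 1568, 1831 and 1470.2 at 0 h against 746, 736 and 807 at 96 h (control 1485 and 1225). It fell by 1.07 ± 0.10 (SE; limma adjusted p = 7.47e-08), which left 47.0% of the 0 h signal, and its groups did not overlap. Its relative HSPA4L read 433, 381 and 331 at 0 h and 128, 156 and 176 at 96 h, a fall to 40.2%, while the control went from 285 to 325. HSPA14, a ribosome-associated HSP70, read 401, 523 and 452 at 0 h and 196, 193 and 250.6 at 96 h (log2 change -1.05, limma adjusted p = 8.24e-06), although 1 of its 3 probe sets moved the other way, by 0.20. The control of HSPA14 also fell, with a log2 change of -0.47. All 3 genes were called lower at 48 h, and HSPA4L and HSPA14 were called at 24 h.

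HSPA9 (mortalin), the HSP70 of the mitochondrial matrix, read 1597, 1619 and 1359 at 0 h, then 1103, 746 and 992 by 48 h and 803, 862 and 937 at 96 h. The control array went the other way, from 1496 at 0 h to 2079 at 96 h. The fall of 0.80 ± 0.12 (SE; limma adjusted p = 3.39e-05) left 56.9%. HSPH1, the heat-inducible HSP110, spread widely at 0 h, with 1561, 952 and 708 in the 3 courses, and then read 618, 556 and 682 by 48 h and 817, 805 and 817 at 96 h. It was called lower at 48 h (log2 change -0.71, limma adjusted p = 0.0064) and not at 96 h (-0.32, limma adjusted p = 0.185). Within courses 1, 2 and 3 the log2 changes of HSPH1 at 96 h were -0.92, -0.24 and 0.20. Its control course read above its own 0 h array at every later time, with log2 changes from 0.76 to 1.24.

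HSPA12A, a distant HSP70 relative that is abundant in brain, was the member with the largest change. It read 131, 140.1 and 167 at 0 h, 240, 223 and 228 by 16 h, 294, 303 and 319 by 24 h, 653, 701 and 759 by 48 h and 677, 759.7 and 658 at 96 h. The control stayed between 122 and 156 at all 6 times. The mean rose 4.78-fold by 96 h (log2 change 2.14 ± 0.13 SE, limma adjusted p = 6.77e-10), and every shOTX2 array from 16 h on lay above all those at 0 and 8 h. HSPA12B was dim in both arms, with 2.00 to 23.1. HSPA13, an HSP70 of the microsomes, read a log2 change of 0.54 and its control 0.42. The change of HSPA13 was not called (limma adjusted p = 0.0603, or 3.95e-06 with the course as a replicate block).

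**Figure D2:**
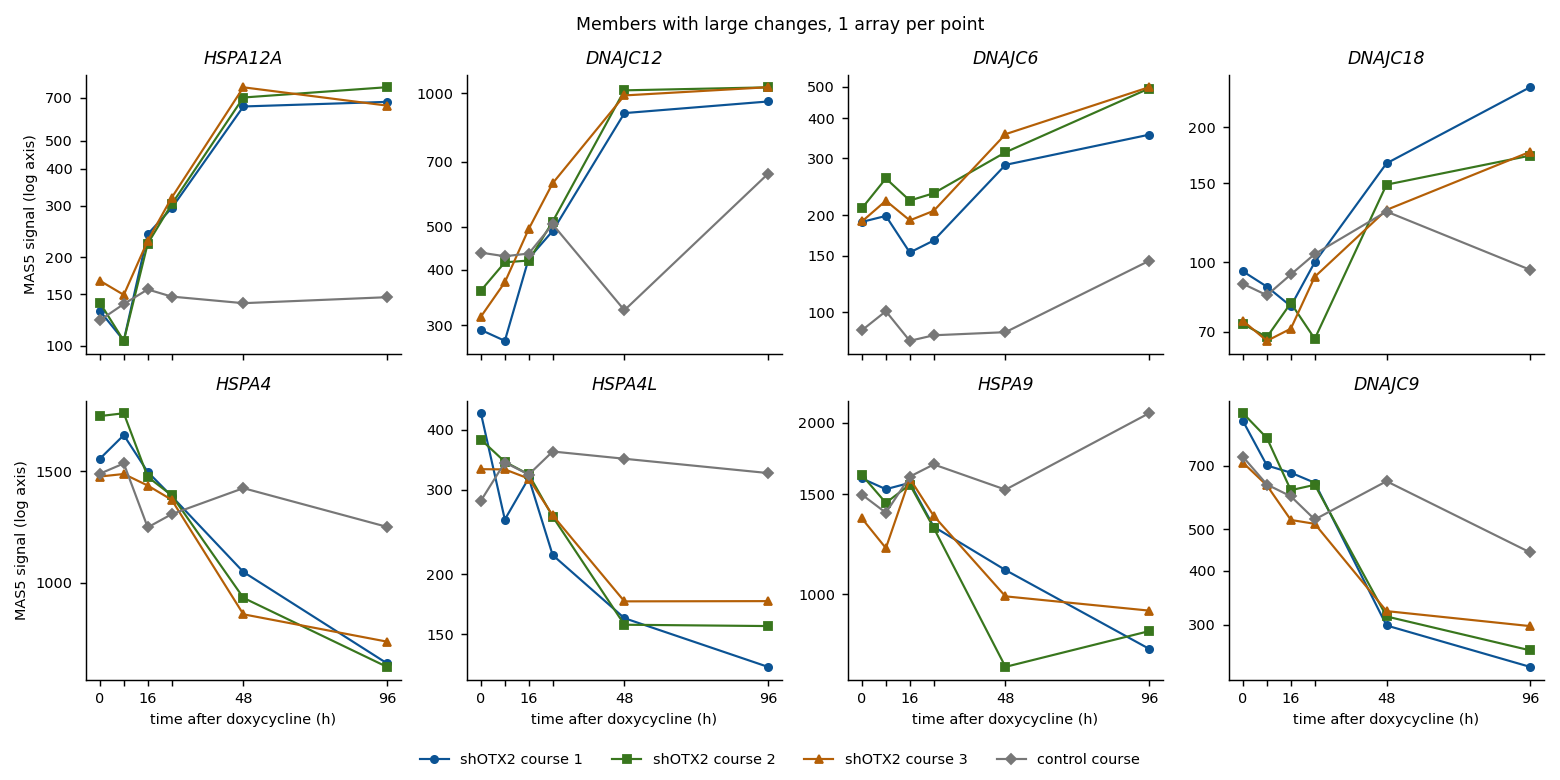
MAS5 signal (log axis) against hours after doxycycline for 8 members with large changes, 1 array a point, with the 3 shOTX2 courses in colour and the control in grey. HSPA12A leaves its control by 16 h and levels off between 653 and 760 from 48 h, while HSPA4, HSPA4L and DNAJC9 are lower at 96 h than at 0 h in all 3 courses.

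Both genes of the mitochondrial chaperonin were lower at 96 h, and of these only HSPE1 was called in the step from 48 to 96 h. HSPE1 (HSP10) read 4359, 4259 and 4454 at 0 h and 2755, 3102 and 3485 at 96 h, and HSPD1 (HSP60) read 7449, 9373 and 7341 at 0 h and 6286, 6778 and 6682 at 96 h. Neither group of arrays overlapped. HSPE1 fell by 0.49 ± 0.08 (SE; limma adjusted p = 5.01e-05) and HSPD1 by 0.28 ± 0.10 (limma adjusted p = 0.0246), and neither was called at 48 h. HSPD1 lost its call without course 1 (limma adjusted p = 0.0743) and without course 2 (0.0991). Both genes are read in opposite directions from start sites 105 bases apart. The window of 300 bases around the HSPE1 start site, which also holds that of HSPD1, is shown because both were called lower; it lies at chr2:197500129-197500428 on the plus strand (RefSeq, GRCh38.p14), and the capitals mark a CACGTG E-box.
HSPE1: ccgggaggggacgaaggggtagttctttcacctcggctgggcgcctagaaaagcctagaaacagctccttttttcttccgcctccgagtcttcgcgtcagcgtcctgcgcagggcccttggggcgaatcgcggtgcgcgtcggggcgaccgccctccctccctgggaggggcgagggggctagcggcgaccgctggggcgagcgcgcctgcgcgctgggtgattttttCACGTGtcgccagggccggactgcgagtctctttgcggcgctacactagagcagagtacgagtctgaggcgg
The letters CACGTG, which read the same on both strands, stood in the promoter windows of 8 of the 73 members with an entry (11%) and of 7.43% of all 27305 promoters. The 8 were DNAJB9, DNAJC12, DNAJC16, DNAJC8, HSP90B1, HSPA9, HSPD1 and HSPE1, and at 96 h 3 of them were called higher and 5 lower, against 21.1% and 22.5% of all genes. The E-box shown lies in the windows of both HSPD1 and HSPE1 and is counted for each.

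Among the TRiC subunits all 7 measured members of the ring had lower means at 96 h than at 0 h, with 52.6% to 86.7% of the 0 h signal and a median of 82.6%. CCT5 changed most: it read 2106, 2499.5 and 2171 at 0 h, 1198, 1339 and 1289 by 48 h and 968, 1248 and 1348 at 96 h, with 2163 and 1968 in the control. It fell by 0.93 ± 0.11 (SE; limma adjusted p = 2.21e-06). CCT3 fell to 70.4%, from 3427, 3428 and 3292 to 2539.6, 2155 and 2444. CCT6A fell to 73.4%, from 2247, 2563 and 2468 to 1571, 1789 and 1982. These 3 subunits were also called at 48 h, when the control of CCT6A read 1729, a log2 change of -0.40, and those of CCT3 and CCT5 read 0.30 and 0.25 higher.

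The calls of CCT7 (log2 change -0.28), CCT8 (-0.23) and CCT4 (-0.23) were small and did not hold throughout. After quantile normalization their changes were -0.11, -0.10 and -0.10, and limma called none of them. CCT4 also lost its call without any 1 of the courses (limma adjusted p from 0.0868 to 0.115), CCT8 without course 2 (0.161) or course 3 (0.0934), and CCT7 without course 2 (0.158). CCT2 read 4024, 4649 and 4032 at 0 h and 3370.4, 3843 and 3806 at 96 h, without overlap, and was not called (log2 change -0.20, limma adjusted p = 0.101). With the course as a replicate block limma called CCT2 as well (adjusted p = 0.00618). CCT6B, a testis form, and CCT8L2 were dim and not called. Across the 24 arrays the pairwise Pearson r between the 7 subunits ran from 0.12 to 0.92 with a median of 0.63. The genes outside the families whose log2 signals followed the subunits' mean most closely were LDHA (r = 0.97), BZW2 (0.97), MDH1 (0.97), CNIH4 (0.96) and NCL (0.96), over 24 arrays that share their courses and times. The subunits' own r with that mean ran from 0.61 for CCT2 to 0.95 for CCT5, lower than for these genes.

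**Figure D3:**
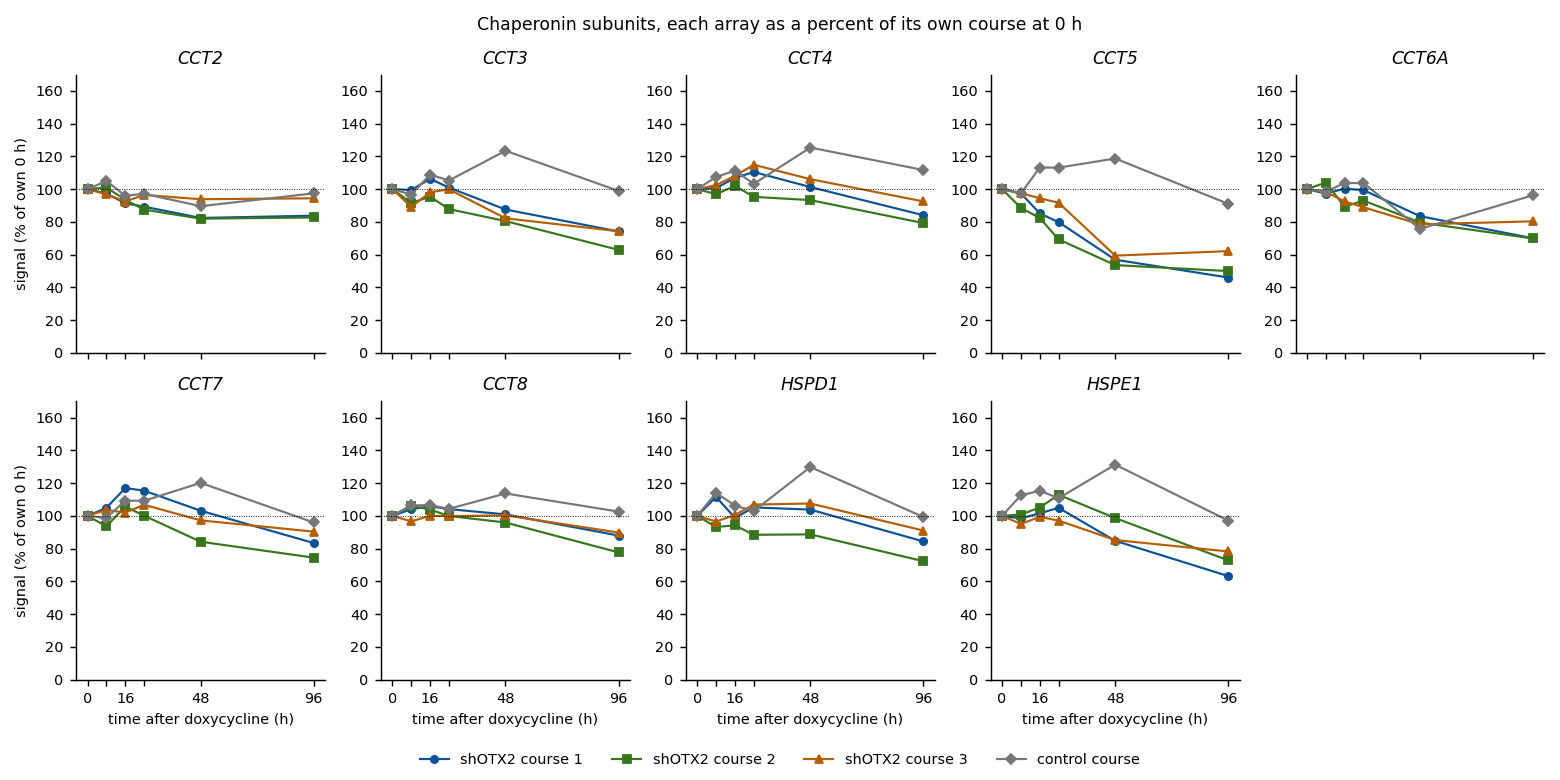
Signal of 7 TRiC subunits and the mitochondrial chaperonin genes HSPD1 and HSPE1 as a percent of the same course at 0 h, against hours after doxycycline, 1 array a point. At 96 h all 3 shOTX2 courses lie below 100% in each of the 9 panels, CCT5 lowest, while the control ends between 91.0% and 111.6%.

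Of the main chaperones of the endoplasmic reticulum HSPA5 rose first, and both HSPA5 and HSP90B1 fell between 48 and 96 h. HSPA5 read 3230.2, 2215 and 2712 at 0 h, 3685, 3530.2 and 3378 by 24 h and 3587, 3633 and 3228 by 48 h, and then 2432, 2250.4 and 2487 at 96 h. It was called higher at 24 h (log2 change 0.39, limma adjusted p = 0.0416) and 48 h (0.37, limma adjusted p = 0.0139), and from 48 to 96 h it fell by 0.54 ± 0.11 (SE; limma adjusted p = 0.0034). At 96 h against 0 h it was not called (-0.17, limma adjusted p = 0.235), while the control read 2590.1 at 0 h, 3329 by 24 h, 3492 by 48 h and 4517 at 96 h. The 48 h arrays overlapped the 0 h arrays by 1 value, the 3228 of course 3.

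HSP90B1 followed a like course: 1151, 1166 and 1182 at 0 h, 1283, 1649 and 1466 by 24 h, 1286, 1475 and 1358 by 48 h and 830.2, 931 and 1013 at 96 h. The rise to 24 h was not called (0.32, limma adjusted p = 0.103), the fall from 48 to 96 h was (-0.56, limma adjusted p = 0.00237), and at 96 h it stood at 79.3% of 0 h. The call of HSP90B1 at 96 h (-0.33, limma adjusted p = 0.0182) was lost without any 1 of the 3 courses (limma adjusted p from 0.0654 to 0.0734) and with the mean of its 2 probe sets (-0.18, 0.64). A further 2 sets also list a microRNA and were not used. HSPA5 and HSP90B1 are shown with their promoter windows because they are the 2 members that hold the ER stress response element, CCAAT and CCACG with any 9 bases between them, on either strand. Of all 27305 promoters 22 (0.08%) hold it. HSPA5 lies at chr9:125241294-125241593 on the minus strand and HSP90B1 at chr12:103930160-103930459 on the plus strand (RefSeq, GRCh38.p14), and the capitals mark the element, which HSP90B1 holds at 2 places.
HSPA5: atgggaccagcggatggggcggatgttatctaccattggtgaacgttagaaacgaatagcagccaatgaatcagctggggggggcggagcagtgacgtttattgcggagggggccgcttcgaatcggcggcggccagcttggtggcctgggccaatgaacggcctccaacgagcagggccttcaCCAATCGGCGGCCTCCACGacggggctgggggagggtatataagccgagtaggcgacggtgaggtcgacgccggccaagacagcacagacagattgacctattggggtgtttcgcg
HSP90B1: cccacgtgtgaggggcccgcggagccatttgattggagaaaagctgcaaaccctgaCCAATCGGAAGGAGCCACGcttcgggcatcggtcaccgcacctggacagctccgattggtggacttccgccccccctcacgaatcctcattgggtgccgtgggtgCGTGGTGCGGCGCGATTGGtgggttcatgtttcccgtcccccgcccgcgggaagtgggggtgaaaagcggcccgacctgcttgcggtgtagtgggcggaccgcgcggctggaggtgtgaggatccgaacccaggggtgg
The other reticulum members are J-domain proteins that work with HSPA5. DNAJC10, a disulfide reductase, fell by 0.55 ± 0.08 (SE; limma adjusted p = 2.87e-05), from 956, 929 and 875 to 580.4, 636 and 653, and DNAJB11 fell by 0.32 (limma adjusted p = 0.0346). DNAJB9, by contrast, rose by 0.71 ± 0.15 (SE; limma adjusted p = 0.000645), from 399, 452 and 557 to 688, 816 and 812, and its control array went further, from 481 to 926. DNAJC3 differed most between courses, with 231 in course 1 and 566 and 601 in courses 2 and 3 at 96 h, and was not called.

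**Figure D4:**
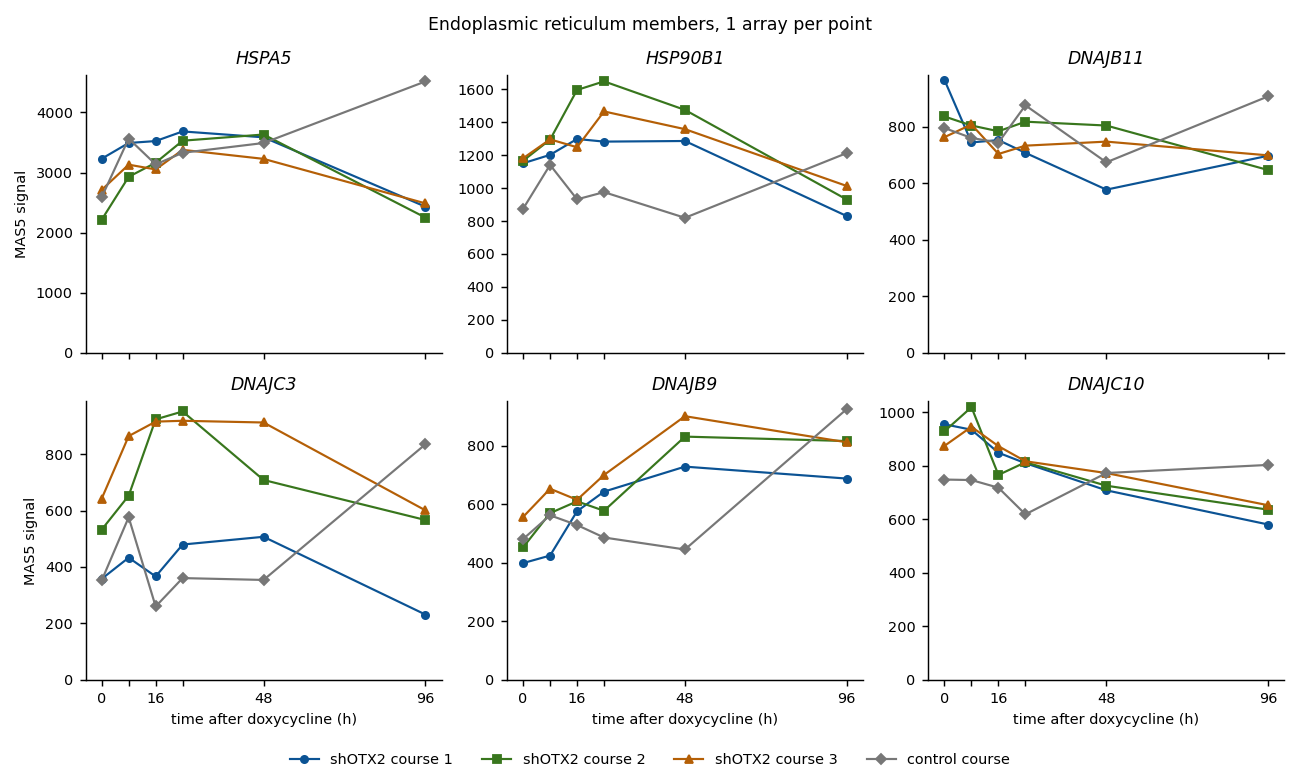
MAS5 signal against hours after doxycycline for 6 members of the endoplasmic reticulum, 1 array a point, with axes from 0. HSPA5 is highest at 24 or 48 h in each shOTX2 course, and HSP90B1 is lowest at 96 h in each, whereas the control ends at its highest value of 4517 for HSPA5 and 1213 for HSP90B1.

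Of a list of 19 tested folding enzymes and chaperones of the reticulum outside the naming rule, 17 had positive changes at 24 h, with a median log2 change of 0.14, beside 0.01 over all genes, and 1 was called. At 24 h 6.15% of all genes were called. At 96 h 16 of the list were negative, 0 were called higher and 3 lower, against 21.1% and 22.5% of all genes. The 3 lower were ERO1A (-1.52), which reoxidises the folding oxidoreductases, SDF2L1 (-0.70) and PDIA3 (-0.42).

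The J-domain genes, the most numerous family, moved both ways. DNAJA3, the mitochondrial partner of HSPA9, read 781, 811 and 839.9 at 0 h and 443, 534 and 597.5 at 96 h, and was the 1 called member of the DNAJA family (log2 change -0.62, limma adjusted p = 0.000325). DNAJA1, the main cytosolic partner of HSP70, read 0.20 higher and was not called (limma adjusted p = 0.096). DNAJB1, the classic heat-inducible J-domain protein, read 875, 423 and 476 at 0 h, 399, 245 and 353 by 48 h and 429, 317 and 341 at 96 h. It was called lower at 48 h (-0.76, limma adjusted p = 0.028) and missed the threshold at 96 h (-0.62, limma adjusted p = 0.0566; 0.00659 with the course as a replicate block).

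DNAJB5 and DNAJB6 rose, from low signals. DNAJB5 read 27.8, 19.1 and 33.5 at 0 h and 144, 90.5 and 84.6 at 96 h (log2 change 1.50 ± 0.24 SE, limma adjusted p = 5.59e-05), with 30.9 and 35.7 in the control. DNAJB6, which keeps polyglutamine proteins from aggregating, read 91.3, 33.6 and 61.1 at 0 h and 194, 153 and 153 at 96 h, on a probe set other than the 2 that also list a second gene. The control of DNAJB6 went from 74.7 to 113.7. These 2 genes, DNAJB9 above and the lower DNAJB11 make up the 4 calls among the 10 DNAJB genes tested.

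The DNAJC genes held the largest changes of the family, with 9 called higher and 5 lower of 26 tested, beside 43.6% of all genes called. DNAJC12, which binds HSP70 for the folding of aromatic amino acid hydroxylases, read 293, 359 and 314 at 0 h, 489, 514 and 627 by 24 h, 901, 1014 and 988 by 48 h and 957, 1029.9 and 1031 at 96 h. The control read 437 at 0 h, 325 by 48 h and 658 at 96 h. The rise was 3.12-fold (log2 change 1.60 ± 0.13 SE, limma adjusted p = 3.18e-08). DNAJC6 (auxilin), which strips clathrin coats in neurons, rose from 191, 210.3 and 191 to 355, 494 and 499, and the control went from 88.1 to 145. DNAJC18 rose from 95.4, 72.8 and 74.0 to 246, 173 and 176, with 89.5 and 96.2 in the control. The others called higher were DNAJC27, DNAJC24, DNAJC16, DNAJC4, DNAJC19 and DNAJC30, with log2 changes from 0.93 down to 0.37.

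DNAJC9, a histone chaperone that brings HSP70 to histones H3 and H4, had the largest fall of any member. It read 889, 927 and 712 at 0 h, 639.8, 633 and 514 by 24 h, 299, 314 and 323 by 48 h and 239.9, 262 and 298 at 96 h, a fall to 31.7% (log2 change -1.60 ± 0.13 SE, limma adjusted p = 2.63e-08). The control also went down, from 735 to 442. DNAJC2 (ZRF1), a ribosome-associated partner of HSPA14, read 967, 999 and 829.5 at 0 h and 521, 479 and 500.3 at 96 h, while the control went from 1042 to 1167. DNAJC21, a factor of ribosome maturation, fell by 0.66 (limma adjusted p = 0.00167) and DNAJC8, a splicing factor, by 0.29 (limma adjusted p = 0.015). In the control DNAJC8 fell as much, with a log2 change of -0.29 at 96 h, and DNAJC21 changed by 0.04. The groups of DNAJC9 and DNAJC2 did not overlap at 96 h.

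Of the 7 small heat shock protein genes 2 were tested. HSPB8 was called lower at 96 h (log2 change -0.60, limma adjusted p = 0.028), but 395, 197 and 293 at 0 h overlapped 188, 205 and 157 at 96 h, course 2 went up, and with the mean of its 2 probe sets the change was 0.03 (limma adjusted p = 0.924). HSPB6 was not called. CRYAB, a small heat shock protein outside the naming rule, fell by 1.76 (limma adjusted p = 0.000337). The non-coding DNAJC3-DT, which starts 214 bases from DNAJC3 on the other strand, rose from 16.8, 6.70 and 21.2 to 49.3, 49.5 and 37.6 (limma adjusted p = 0.000327), and its control went from 24.2 to 52.2.

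The kept probe sets of a gene moved in different directions at 96 h in 9 of the 47 members with several: DNAJB12, DNAJB13, DNAJB14, DNAJC10, DNAJC13, DNAJC4, DNAJC9, HSPA14 and HSPB8. For DNAJC9 the brightest 2 sets changed by -1.60 and -1.36 and another, with a mean signal of 17.4, by 0.23. For DNAJC10 4 sets changed by -0.55 to -0.28 and 1 with a mean signal of 24.3 by 0.11. For DNAJC4 3 sets changed by 0.52 to 0.72 and 1 by -0.06.

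In time, the first calls came at 16 h. At 8 h no member was called and 0% of all genes, with 3 members at an unadjusted p under 0.05 in limma and 0 called with the course as a replicate block. At 16 h HSPA12A (log2 change 0.61) and DNAJC3-DT (0.97) were called higher, 2 of 67 against 1.02% of all genes (0.633% higher and 0.388% lower). With the block limma called 8 members, and without any 1 of the courses it called none. Here and below, member counts under alternative fits come without the share of all genes called by the same fit. They are therefore set against no background. At 24 h 5 were called higher, HSPA12A (0.99), DNAJC3-DT (0.98), DNAJC1 (0.95), DNAJC12 (0.72) and HSPA5 (0.39), and 4 lower, HSPA4L (-0.58), HSPA14 (-0.56), DNAJC9 (-0.49) and DNAJC2 (-0.38). That is 9 of 67 against 6.15% of all genes (3.45% higher and 2.7% lower), with 16 members under the block, 0 without course 2 and 2 without course 3.

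DNAJC1, a membrane J-domain protein of the reticulum, was, like HSPA5, called higher early and not at 96 h. It read 733, 950.4 and 1197 at 0 h, 1611, 2169 and 1772 by 24 h, 974, 1999.8 and 1592 by 48 h and 966, 1304 and 1289.9 at 96 h. Its calls were at 24 h and 48 h. Of the 9 members called at 24 h 7 were called in the same direction at 96 h, HSPA5 and DNAJC1 being the others; these comparisons share the 0 h arrays.

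By 48 h 17 members were called higher and 15 lower, 32 of 67 against 33.3% of all genes (16.3% higher and 17% lower). With each array centred on its median the split was 13 higher and 19 lower. At 96 h that scaling moved the median change of all genes from 0.00 to -0.12, and the higher calls went from 48.4% to 38.5% of all genes called. Without course 2 the count at 48 h was 19 and without course 3 it was 17. The step from 24 to 48 h had 5 members higher and 9 lower, against 17.8% of all genes, 8.39% and 9.37% (4 and 15 after median centring; 28 under the block; 4 without course 2 or without course 3). HSPA12A (1.16), DNAJC12 (0.82), DNAJC18, DNAJC6 and DNAJC4 rose in that step, and DNAJC9 (-0.89), DNAJA3 (-0.57), HSPA4L, HSPA9, HSPA4, CCT5, HSPA14, DNAJC8 and DNAJC2 fell.

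From 48 to 96 h 5 members fell and none rose, against 11.8% of all genes, 5.36% higher and 6.46% lower: HSP90B1 (-0.56), HSPA5 (-0.54), HSP90AB1 (-0.35), HSPE1 (-0.33) and HSPA4 (-0.32). Of these HSP90B1, HSP90AB1 and HSPE1 were not called at 48 h, whereas HSPA4 was. Under the block 18 members were called in this step, and without course 1 or course 2 limma called 3 and 0.

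The control course asks which of these changes came with doxycycline and time in culture alone. Over its 67 tested members the median log2 change at 96 h was 0.09, beside 0.01 over all genes. No member, and 0% of all genes, was called in late (48 and 96 h) minus early (0 and 8 h) arrays of the control, with 4 members at an unadjusted p under 0.05 in limma and 0 called under the block. The change at 96 h differed between the arms in 13 members, 3 higher and 10 lower in the arrays labelled shOTX2, against 13.7% of all genes, 6.28% higher and 7.43% lower. Without course 2 limma called 5 of them, and under the block 25.

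HSPA12A had the largest difference between the arms, 1.91 ± 0.26 (SE; limma adjusted p = 0.000136), followed upward by DNAJC18 (1.05) and DNAJC12 (1.03). Downward, HSPA4L differed by -1.41 ± 0.27 (SE; limma adjusted p = 0.00186), HSPA9 by -1.27, DNAJC2 by -1.04, HSPA5 by -0.97 and DNAJA3 by -0.89. In all 5 of these the control array was higher at 96 h than at 0 h, by 0.18, 0.47, 0.16, 0.80 and 0.27. The differences of HSPA12A, HSPA4L, HSPA9, DNAJC2 and HSPA5 were called under all 11 alternatives. Among the chaperonins 1 subunit differed between the arms, CCT5 (-0.79, limma adjusted p = 0.023). Taken as late minus early, the arms differed in 18 members, 5 higher and 13 lower (22.5% of all genes, 10.5% and 12%; 33 members under the block, 12 without course 2), CCT3, HSPE1 and HSP90AB1 among them.

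**Figure D5:**
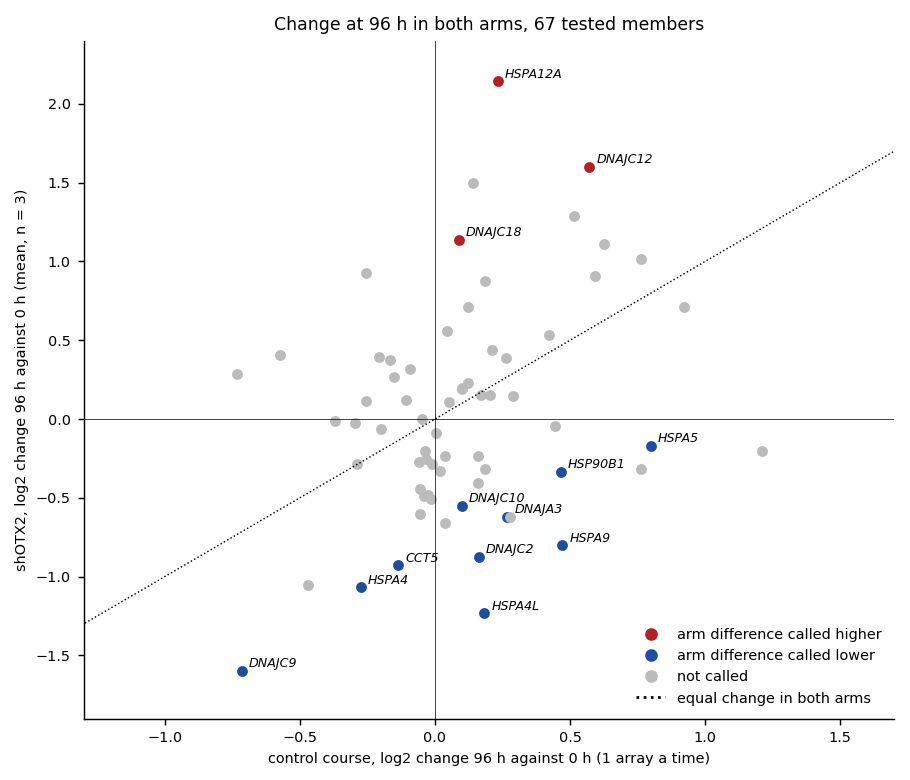
Log2 change at 96 h against 0 h in the control course (x axis, 1 array a time) and in the shOTX2 courses (y axis, mean of 3) for the 67 tested members; the dotted line marks equal change and colour marks members whose difference between the arms was called. HSPA12A stands highest above the line, and HSPA4L, HSPA9 and HSPA5 lie well below it.

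The partners of these chaperones were also read, from lists outside the naming rule, to be read beside the 21.1% higher and 22.5% lower among all genes at 96 h. Of 18 tested HSP90 co-chaperones 2 were called higher and 9 lower at 96 h (median log2 change -0.41), the immunophilins FKBP5 (-2.15) and FKBP4 (-1.44) among the lower. Of 15 HSP70 exchange factors and co-chaperones 1 was higher and 4 lower, led by GRPEL1 (-1.10), the exchange factor of HSPA9. Mitochondrial import and quality control had 11 of 17 lower and 0 higher (median -0.65), with TOMM40 (-0.90) and TOMM22 (-0.84), both of the outer membrane pore.

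Prefoldin, which hands unfolded actin and tubulin to TRiC, and the other chaperonin cofactors had 2 higher and 3 lower of 10: PDRG1 (1.65), PFDN4 (0.45), URI1 (-0.49), PFDN2 (-0.45) and UXT (-0.43). Among 17 tubulin and actin genes and tubulin cofactors 3 were higher, such as TUBA4A (1.14), and 5 lower, such as TUBB6 (-2.24) and TUBB2B (-1.16). Of 4 heat shock factors, the transcription factors that drive heat shock genes, HSF1 was tested: it read 156, 137 and 127 at 0 h and 94.2, 49.9 and 23.5 at 96 h (log2 change -1.24, limma adjusted p = 0.0184), and 96.7 and 154 in the control.

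The heat shock element searched was GAA, TTC and GAA with any 2 bases between each, on either strand, which 0.49% of the 27305 promoters hold and 3 of the 73 member promoters. Its 3 matches are shown with 10 bases on either side, from RefSeq (GRCh38.p14), all on the plus strand, with the element in capitals: DNAJA1 at chr9:33025266-33025298, DNAJB6 at chr7:157336863-157336895 and HSPA6 at chr1:161524456-161524488.
DNAJA1: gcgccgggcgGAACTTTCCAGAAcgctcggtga
DNAJB6: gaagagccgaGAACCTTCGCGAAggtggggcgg
HSPA6: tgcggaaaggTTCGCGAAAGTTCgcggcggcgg
Of these 3 genes DNAJB6 rose at 96 h, DNAJA1 was not called and HSPA6 did not pass the filter.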

How the data were processed

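The deposited values are linear MAS5 intensities, 1 per probe set and array. The authors made them with MAS5 and GCOS, per the submitters' processing notes, which name no version; every array's 2% trimmed mean was close to 100.01, so arrays had been scaled as a whole. Probe sets were named through the platform table with symbols updated by gene ID: 41097 list 1 symbol, 1801 several, and 11777 were not listed. The values carry no depth; the number of arrays limits precision.

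Log2(signal + 16) was fitted with limma 3.58.1 in R 4.3.3 (lmFit, eBayes with a trend; 12 group means, 12 residual degrees of freedom), with Benjamini-Hochberg adjustment over 13903 genes. The p-values measure the spread between courses, which the labels call independent. Deviations from the group means correlated within each of 45 same-course pairs of times (r 0.16 to 0.56), so the course number pairs arrays. The median between courses was -0.28, but deviations from a group mean cancel out within a time, so this negative value is no separate support. A fit holding the course as replicate block is given where it changes a call or a count. The script was tested on simulated data.

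The members, gene lists and rules were chosen with earlier results of these data known. Named genes are the main chaperones, up to 3 called members each way per family, members called by 24 h or in the arm difference, members whose probe sets disagree, and up to 3 each way per list; others named were chosen after their values were seen. Alternatives were the pseudocount (1, 64), no filter, the mean of probe sets, median centring, quantile normalization, each course left out, the block, only the groups compared and no variance trend. Promoters (250 bases before to 50 after the start) matched 73 of 81 members.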

Additional observations from a re-analysis of the deposited data

Results flagged for a closer look

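The change differed between the arms in the following members, by limma's test of the difference itself. At 96 h against 0 h the difference, shOTX2 minus control in log2, was 1.91 for HSPA12A, 1.05 for DNAJC18 and 1.03 for DNAJC12. It was -1.41 for HSPA4L, -1.27 for HSPA9, -1.04 for DNAJC2, -0.97 for HSPA5, -0.89 for DNAJA3, -0.88 for DNAJC9, -0.80 for HSP90B1, -0.79 for HSPA4, -0.79 for CCT5 and -0.65 for DNAJC10.

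For late (48 and 96 h) minus early (0 and 8 h) the difference was 2.17 for HSPA12A, 1.42 for DNAJC12, 0.99 for DNAJC27, 0.91 for DNAJC4 and 0.69 for DNAJC18. It was -1.14 for HSPA4L, -1.03 for DNAJC9, -1.03 for HSPH1, -0.98 for HSPA9, -0.94 for DNAJC2, -0.90 for CCT5, -0.73 for HSPA4, -0.73 for HSPA14, -0.68 for DNAJA3, -0.54 for DNAJC10, -0.50 for CCT3, -0.40 for HSPE1 and -0.27 for HSP90AB1. The control has 1 array a time, so its own spread enters these tests only as assumed equal to that of the other arm.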

How the results depend on the processing

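At 96 h 27 of the 36 calls held under all 12 alternatives; CCT4, CCT7, CCT8, DNAJB11, DNAJC30, DNAJC8, HSP90B1, HSPB8 and HSPD1 lost theirs under at least 1. HSPB8 turned from -0.60 to 0.0315 with the mean of its probe sets. Counts of members called that moved by over 1.5 times were, with the course as a replicate block, 8 at 16 h, 16 at 24 h, 28 from 24 to 48 h, 18 from 48 to 96 h, 25 in the arm difference at 96 h and 33 in that of late minus early. Median centring gave 1 at 16 h, fitting only the groups compared gave 0 at 16 h and 3 at 24 h, and no variance trend gave 3 from 48 to 96 h. Leaving out each course in turn gave 0 to 0 at 8 h, 0 to 0 at 16 h, 0 to 8 at 24 h, 17 to 33 at 48 h, 28 to 35 at 96 h, 4 to 17 from 24 to 48 h, 0 to 4 from 48 to 96 h, 5 to 17 and 12 to 24 in the arm differences, and 0 to 0 in the control. For these counts no share of all genes under the same fit is given, so they are set against no background. The causes were not tested.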
